A study of Mus musculus with 2 samples.

Results

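Contacts of 4 adjacent HindIII fragments near the outer end of Igh, the locus of the antibody heavy chain in the mouse, were measured against fragments along the whole locus in splenic B cells. The fragments carry primer numbers 22 to 25 and were chosen by that number alone, because the interval in which they end is given as that of the 3' CTCF-binding elements, downstream of the 3' regulatory region. Every pair of a forward and a reverse fragment that held at least 1 of the 4, with midpoints at least 10 kb apart, was kept. This gave 405 of the 10415 pairs of that distance in the map. The measurement was 5C, in which chromatin is crosslinked, cut with HindIII and ligated, and ligation products are amplified with forward and reverse primers on fragment ends. A forward fragment can be read only with reverse fragments, and the other way round.

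The cells came from C57BL/6 mice, were sorted as CD43- splenic B cells and were kept for 40 hours in medium with LPS and IL4. All belong to 1 group of 2 libraries, replicate 1 and replicate 2, which the series description calls biological. There was no resting, untreated or CTCF-deficient group, so no comparison between conditions could be made, and how many mice gave each library is not given in the sources used here. B cells carry rearranged Igh alleles, so distances on the reference are not those of every allele. The rearrangements in these cells were not examined here.

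CTCF is a DNA-binding protein that can halt the cohesin complex while it extrudes a chromatin loop, and clusters of CTCF sites often lie at the borders of contact domains. At the 3' end of Igh such a cluster lies beyond the 3' regulatory region, a group of enhancers past the constant genes that acts in class switching and in strong Igh transcription in activated B cells. LPS with IL4 induces switching to IgG1 and IgE. In the GRCm38.p6 gene table from RefSeq rising coordinates pass Tmem121 first, then the constant genes (Igha first and Ighm last), then the J, the D and at last the V segments. In the text below, the outer side means lower coordinates, away from the Igh genes, and the Igh side means higher coordinates, towards them. CTCF binding was not measured, and gene models of that build were not used here, so the placement on the CTCF-binding elements was not checked and fragments carry no gene names.

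The 4 fragments are contiguous and cover chr12:114434637-114450784 (mm9), a stretch of 16.15 kb. From the outer side they are reverse 22 (chr12:114434637-114441221, 97 pairs), forward 23 (chr12:114441222-114447060, 106 pairs), reverse 24 (chr12:114447061-114449887, 96 pairs) and forward 25 (chr12:114449888-114450784, 107 pairs). The pair of forward 25 with reverse 22 counts for both of its fragments. Unprobed gaps of 13.88 kb on the outer side and 15.12 kb on the Igh side set the stretch apart from the next probed fragments. The 4 nearest on the outer side are reverse 17, forward 18, reverse 19 and forward 20, and the 4 nearest on the Igh side are forward 28, reverse 29, forward 31 and reverse 33. The whole map spans chr12:114339456-117350186 and holds 98 forward and 108 reverse fragments. The libraries held 14503618 and 17658603 counts, of which 3082248 and 5553647 lay in pairs at least 10 kb apart. A count is a sequenced ligation product without a molecular identifier, so intervals below cover counting error only.

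Most pairs of the 4 fragments had fewer counts than the average for their distance, and the shortfall was larger in replicate 1. The median pair held 15 counts in replicate 1 and 76 in replicate 2, against 40 and 71 over all pairs. Relative to the expected count, the smoothed mean of all pairs of the same distance in that library, the median ratio was 0.0989 and 0.372, or 0.236 ± 0.193 (SD, n = 2). Over all pairs of the map the median ratio was 0.357 and 0.404, below 1 because a few very high pairs raise the mean. In replicate 1, 20 of the 405 pairs had a count of 0, which allows up to 3 counts. In replicate 2 none did. Only 235 of the 405 pairs (58.02%) reached 10 counts in both replicates.

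The fragments differed in level. Intervals given with median counts here are 95% exact Poisson intervals of 1 pair with that count, not of the median over the fragment's pairs. Reverse 22 had the highest level, with a median of 42 counts in replicate 1 (30.27 to 56.77) and 112 in replicate 2 (92.22 to 134.8). Its median ratios were 0.288 and 0.736. Forward 25 followed with 17 counts (9.903 to 27.22) and 95 (76.86 to 116.1), and ratios of 0.106 and 0.442. Reverse 24 had 11 counts (5.491 to 19.68) and 42.5 (30.69 to 57.35), and ratios of 0.0670 and 0.272. These orders held in each replicate, with reverse 22 above forward 25 and forward 25 above reverse 24. Forward 23 had 5 counts (1.623 to 11.67) and 50.5 (37.54 to 66.49), with ratios of 0.0581 and 0.306, and it ranked below reverse 24 in replicate 1 and above it in replicate 2. Averaged over the replicates, the median ratios were 0.512 ± 0.317 for reverse 22, 0.274 ± 0.238 for forward 25, 0.182 ± 0.176 for forward 23 and 0.170 ± 0.145 for reverse 24 (SD, n = 2), so no neighbours in this order differed beyond the spread between replicates. On the outer flank the median ratios ran from 0.396 ± 0.149 (reverse 19) to 0.681 ± 0.220 (reverse 17). On the Igh flank forward 31 had 1.49 ± 0.275 and reverse 33 had 2.72 ± 0.496, while reverse 29 had 0.362 ± 0.0714.

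**Figure D1:**
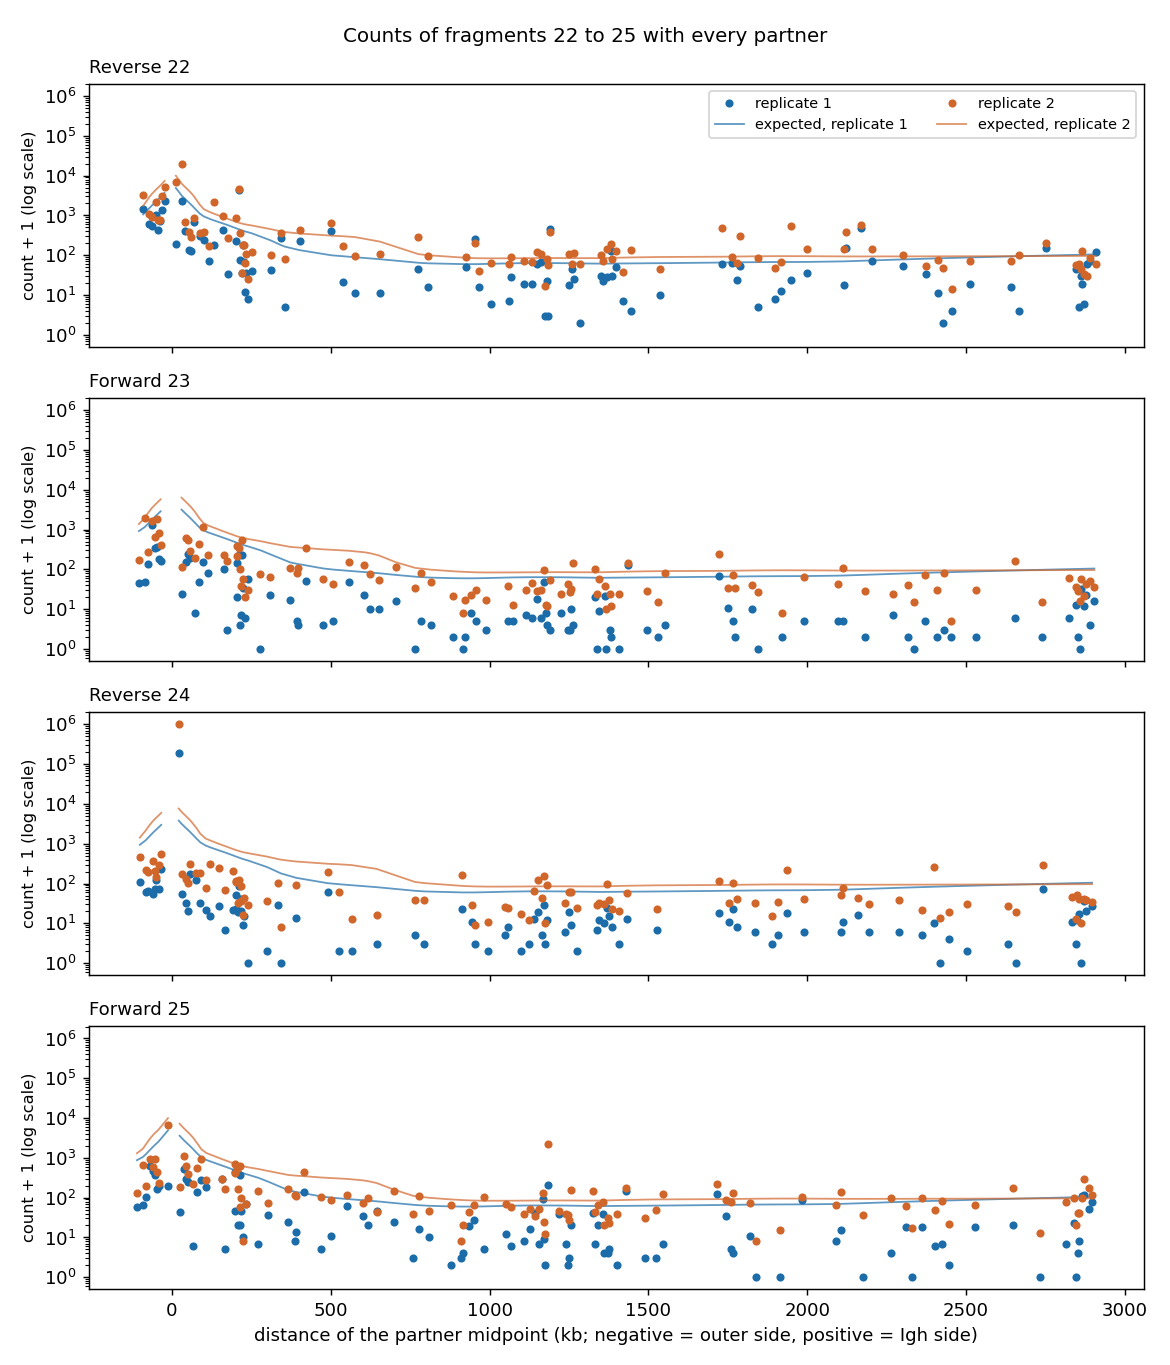
Counts of reverse 22, forward 23, reverse 24 and forward 25 with each partner (count + 1, log axis) by the distance of the partner midpoint in kb, negative on the outer side. Points are pairs in replicate 1 and replicate 2 and lines are the expected counts of each replicate; most points lie below the lines, those of replicate 1 further below, and forward 28 with reverse 24 stands alone at 186765 and 1027548 counts.

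The difference between the replicates was shared by all 4 fragments. In each library, a primer factor was taken as the mean ratio of a fragment to the expected count, fitted together for all primers. It mixes primer efficiency with true contact frequency, which these data cannot tell apart. The factor of forward 23 rose from 0.132 in replicate 1 to 0.529 in replicate 2, a ratio of 4.00. For reverse 24 it was 0.141 and 0.552 (ratio 3.93), for forward 25 it was 0.333 and 1.02 (3.06), and for reverse 22 it was 0.706 and 1.52 (2.15). These ratios ranked 6, 7, 14 and 34 among 206 fragments, for which the median ratio was 1.06 and the 5th to 95th percentiles were 0.511 to 3.19. Of all 206 fragments, 43 (20.87%) had a ratio over 2, up to 5.55, so shifts of this size were not particular to the cluster. The 16 fragments on the outer side, the nearest of them 13.88 kb away, had ratios from 0.366 to 1.06, none of them over 2. On the Igh side forward 28 had 1.63, reverse 29 had 1.001, forward 31 had 0.611 and reverse 33 had 0.729. All 4 fragments were therefore read more in replicate 2, and most of their neighbours were not.

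**Figure D2:**
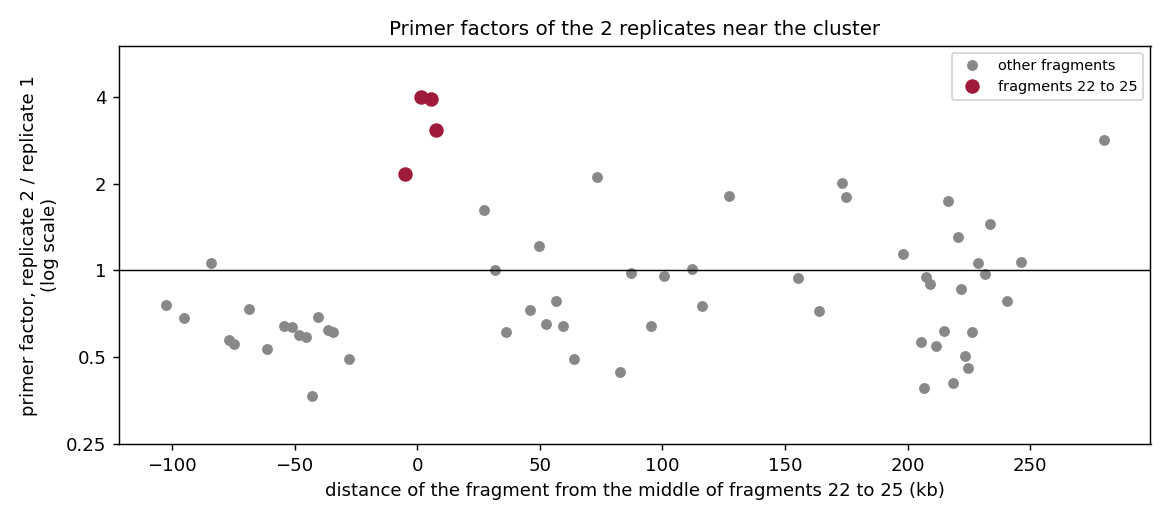
Primer factor in replicate 2 over that in replicate 1 (log axis) for fragments from 110 kb on the outer side to 290 kb on the Igh side of the middle of fragments 22 to 25. The 4 fragments lie at 2.15 to 4.00, above all 16 fragments of the outer side, which lie at 0.366 to 1.06.

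The same shift was seen pair by pair. Among the 235 pairs with at least 10 counts in both replicates, the share of a library's counts was higher in replicate 2 for 213 (90.64%), with a median ratio of shares of 2.32 and a range of 0.404 to 33.96. Of these pairs 63 (26.81%) differed over 4-fold. Over the 8015 such pairs of the map, 59.48% had a higher share in replicate 2 and 9.395% differed over 4-fold in that direction. Products that join the fragments to each other were among the pairs with a large shift. Forward 23 with reverse 22, 6.212 kb apart, had 1377 and 34494 counts, forward 23 with reverse 24 had 267 and 10266, and forward 25 with reverse 24 had 975 and 34016. These 3 pairs lie within 10 kb and are outside the 405. Forward 25 with reverse 22, at 12.41 kb the nearest pair inside, had 190 and 6802 counts. Their shares rose 20.57-, 31.58-, 28.65- and 29.40-fold, less than the 33.96-fold of forward 23 with reverse 4, an outer partner 85.51 kb away. What set the libraries apart here was not tested. Absolute levels of the 4 fragments are therefore known only within the spread given, and comparisons between partners of 1 fragment rest on values divided by the primer factors, called corrected ratios below. For these the factors were fitted without the 25 pairs called in the map.

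Between replicates, the ratios of the 405 pairs ranked with a Spearman rho of 0.651, a description only, since pairs share primers. By fragment rho was highest for reverse 24 (0.776) and lowest for forward 23 (0.439). After correction the values were 0.788 for reverse 24, 0.645 for reverse 22, 0.503 for forward 25 and 0.370 for forward 23.

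The 4 fragments held 1 pair called as above its distance in both replicates, a share close to the background. A pair was called when its count exceeded the expected count with q under 0.01 in each replicate, from a Weibull fit to the residuals of all 10415 pairs with Benjamini-Hochberg adjustment. Of 10415 pairs 25 were called (0.24%), and of the 405 pairs 1 was (0.247%). Replicate 1 alone called 45 pairs (0.432%), of which 1 was among the 405, and replicate 2 alone called 39 (0.374%), of which 2 were. With counts divided by primer factors, 33 pairs of the map were called (0.317%) and 3 of the 405 (0.741%).

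The pair called on counts joined reverse 24 to forward 28 (chr12:114465909-114474052), the first probed fragment across the gap on the Igh side, 21.51 kb away. It held 186765 counts in replicate 1 and 1027548 in replicate 2. The ratios to the expected count were 49.03 and 134.1, or 91.5 ± 60.1 (SD, n = 2), and the corrected ratios 147.5 and 84.97. The q-values of the count fit were 1.214e-12 and 3.778e-30. This 1 pair made up 98.81% of the counts of reverse 24 in replicate 1 (98.76 to 98.86, the 95% Wilson interval). In replicate 2 it made up 99.16% (99.14 to 99.18). The other 95 pairs of reverse 24 held 2254 and 8717 counts. It also carried most counts of the whole cluster: the share of counts at least 10 kb apart held by the 4 fragments was 7.275% and 20.53% with it, and 1.294% (1.281 to 1.307) and 2.485% (2.470 to 2.499) without it.

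The neighbours of this pair included 1 with a high count. Forward 28 with reverse 33 had 72584 and 136433 counts, 17.89 and 16.66 times the expected count, with q of 0.002979 in replicate 1 and 0.2365 in replicate 2, and corrected ratios of 1.19 and 1.27. Forward 31 with reverse 24, the next fragment on the Igh side, had 55 and 172 counts, with corrected ratios of 0.0369 and 0.0321. Forward 28 with reverse 22, the next reverse fragment of the cluster, had 2331 and 19453 counts, with corrected ratios of 0.461 and 0.732. All 5 neighbouring pairs had corrected ratios under 2 in both replicates, from 0.0321 to 1.27. The call did not hold on the log2 scale, where 0 pairs of the map were called and 5 of the 405 (1.235%) had an unadjusted p under 0.05 in both replicates, against 2.42% of all pairs. It did not hold either without the distance minimum, which gave 26 called pairs in the map and a mean ratio of 36.83 for this pair.

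Another 2 pairs were called only after primer correction. Forward 25 with reverse 348 (chr12:115632508-115636437), 1184 kb away, had 210 and 2205 counts, ratios of 3.35 and 26.21, and corrected ratios of 17.55 and 25.67 (21.6 ± 5.75, SD, n = 2). Its q-values after correction were 2.681e-18 and 1.192e-39. On counts only replicate 2 called it. Its 8 neighbouring pairs had corrected ratios from 0.420 to 1.97; forward 23 with reverse 348 had 2 and 52 counts. Forward 71 (chr12:114649352-114649657) with reverse 22, 211.6 kb apart, had 4300 and 4510 counts, ratios of 9.64 and 6.90, and corrected ratios of 12.11 and 10.07 (11.1 ± 1.44). The corrected q-values were 1.426e-06 and 0.0003747. This was the pair with the most even counts among the 3, and its 8 neighbours had corrected ratios from 0.134 to 1.51. Forward 68 with reverse 22 had 222 and 846 counts, and forward 71 with reverse 24 had 52 and 117.

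The choice of primer factors decided 2 of these calls. With factors fitted without the called pairs, 19 pairs of the map were called (0.182%), and among the 405 forward 71 with reverse 22 lost its call while forward 340 (chr12:115618625-115620230) with reverse 24 gained one. The latter, 1171 kb apart, had 28 and 152 counts and corrected ratios of 6.18 and 6.15. Neighbours were examined for the 3 pairs described first, and none of these had a neighbour with a corrected ratio over 2 in both replicates. This does not extend to forward 340 with reverse 24. Forward 338, the next forward fragment at lower coordinates, had corrected ratios of 3.14 and 3.21 with reverse 24, on 4 and 43 counts. Forward 344, the next at higher coordinates, had 1.214 and 0.5805 with reverse 24.

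Contacts at short range were unequal between the sides of the cluster once ratios were divided by the primer factors. Between 25 and 100 kb, the 28 pairs with outer partners had median corrected ratios of 0.413 in replicate 1 and 0.379 in replicate 2, and the 25 pairs with Igh-side partners had 0.166 and 0.128. On the log2 scale the Igh side was lower by a difference of -1.31 and -1.57, or -1.44 ± 0.18 (SD, n = 2). The difference had the same sign in each fragment and each replicate. For reverse 22 the medians were 0.615 and 0.552 on the outer side against 0.145 and 0.117 on the Igh side. For forward 23 they were 0.522 and 0.677 against 0.212 and 0.175, and for reverse 24 they were 0.303 and 0.309 against 0.120 and 0.0938. Forward 25, the fragment nearest to the Igh genes, had the least difference, with 0.267 and 0.260 against 0.154 and 0.131. Single pairs of the sides overlapped in every fragment.

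**Figure D3:**
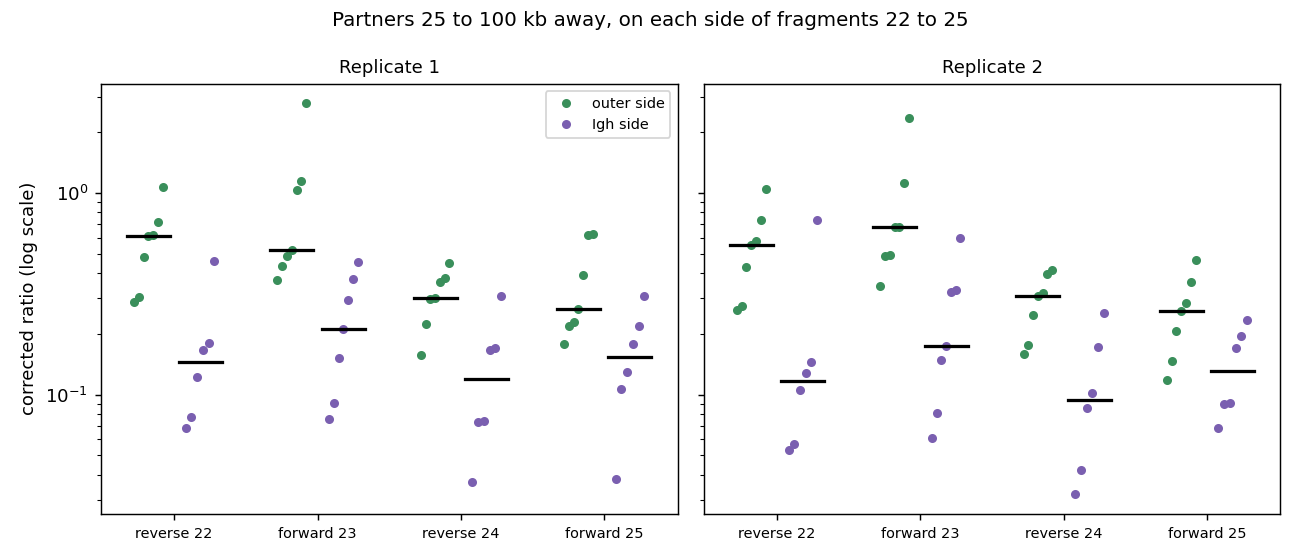
Corrected ratios (log axis) of single pairs of each fragment with partners 25 to 100 kb away, in replicate 1 and replicate 2, with bars at the medians. Outer-side medians lie above Igh-side medians in all 4 fragments and both replicates, while single pairs overlap.

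The correction contributes to this difference. Without it, the medians were 0.0921 and 0.151 on the outer side against 0.0920 and 0.101 on the Igh side, log2 differences of -0.00 and -0.57. The 14 partners on the Igh side had median primer factors of 2.49 and 1.77, and the 16 on the outer side 1.29 and 0.768. Partners on the Igh side thus had more counts with the rest of the map but not with the 4 fragments. For forward 25 the uncorrected medians were higher on the Igh side, at 0.119 and 0.166 against 0.0854 and 0.152.

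The same comparison, made for every fragment of the map with at least 3 partners on each side, placed a change of sign just beyond forward 25. It was not the only change of sign in the map. Each fragment's partners 25 to 100 kb away at higher coordinates were set against those at lower coordinates. All 4 cluster fragments were negative in both replicates, with reverse 22 at -2.09 and -2.24, forward 23 at -1.30 and -1.95, reverse 24 at -1.33 and -1.72, and forward 25 at -0.796 and -0.996 (log2). Of the 6 fragments compared on the outer side, 5 were negative in both replicates; they had only 3 or 4 partners at lower coordinates, since the map ends there. From forward 28 on, the next 12 fragments, up to reverse 44, were positive in both replicates, with log2 values from 1.15 to 2.97 in replicate 1 and 0.81 to 2.98 in replicate 2. Forward 28 itself had 1.17 and 1.24. Further on, forward 54 to reverse 73 were negative in both replicates, with -3.101 and -3.037 at reverse 73, lower than in any cluster fragment. Forward 76 differed in sign between replicates. Reverse 94 (0.3496 and 2.15), forward 103 and reverse 106 (0.7764 and 1.667) were positive again in both. Uncorrected, reverse 94 and forward 103 were negative in replicate 1. Of the 61 fragments compared, 30 (49.18%) were negative in both replicates and 13 (21.31%) were below -1 in both, among them 3 of the 4. Without primer correction the next 12 fragments were again positive in both replicates, and 3 of the 4 cluster fragments negative, the exception being forward 25 at 0.48 and 0.13. Of the 6 outer fragments only 2 were then negative in both replicates, against 5 with correction.

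Pairs that reached across the gap between forward 25 and forward 28 were correspondingly low after primer correction. The 55 pairs 25 to 100 kb apart that spanned this border had a median corrected ratio of 0.167 in replicate 1 and 0.171 in replicate 2. These were the lowest values in each replicate among 104 borders with at least 20 spanning pairs, for which the median was 0.276 and 0.365. The adjoining borders were close to it, at 0.170 and 0.172 (forward 28 and reverse 29) and 0.171 and 0.177 (reverse 24 and forward 25). The minimum is therefore not placed at 1 border. A separate border far from the cluster, between reverse 81 and forward 82, was nearly as low, at 0.176 and 0.173. Of the 55 pairs 25 had an end in the cluster. They are the same 25 Igh-side pairs that entered the comparison of sides, so the border is not a separate result. Neighbouring borders share most of their pairs, and the values fell gradually, from 0.259 and 0.257 at the border of forward 20 and reverse 22 to this minimum. The 56 pairs of the same distance that lay wholly on the outer side, cluster included, had 0.372 and 0.490. The 33 pairs wholly on the Igh side within 100 kb of forward 28 had 0.482 and 0.689. Uncorrected, the medians were 0.197 and 0.179 across the border, 0.247 and 0.178 on the outer side, and 1.985 and 1.131 on the Igh side. In replicate 2 the uncorrected crossing pairs were thus not below the outer ones. The rank depended on the settings: it stayed the lowest with factors fitted with the called pairs and with a lowess span of 0.6, but was 16 and 7 with a span of 0.1, 20 and 7 of 99 borders among pairs with at least 10 counts, and 58 in both replicates without primer correction. Called forward 28 with reverse 24, at 21.51 kb, lies below this distance range and crosses the same border.

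**Figure D4:**
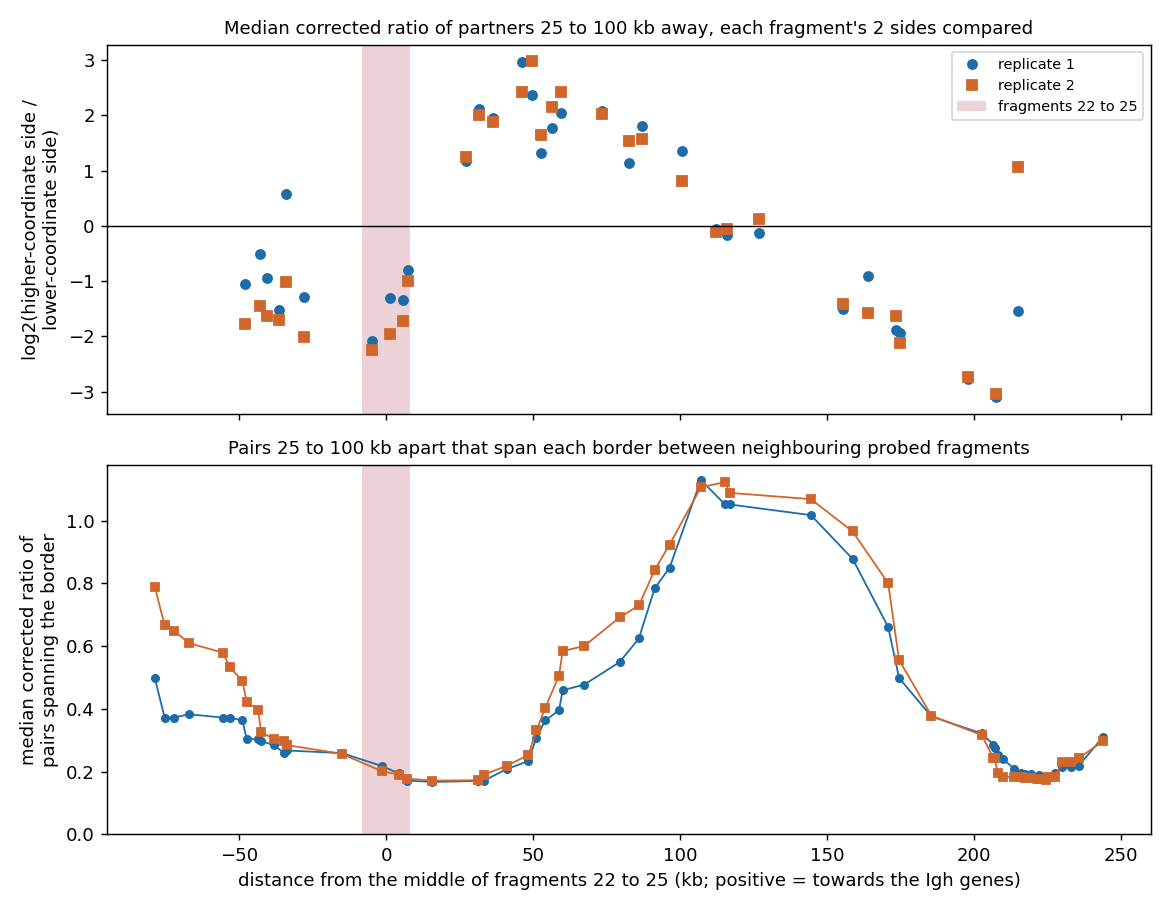
Upper panel, log2 of the median corrected ratio of partners 25 to 100 kb away at higher over lower coordinates, for each fragment near the cluster; lower panel, median corrected ratio of pairs 25 to 100 kb apart that span each border; both by distance in kb from the middle of fragments 22 to 25, in replicate 1 and replicate 2. Fragments 22 to 25 are negative and the 12 fragments from forward 28 on positive, and the spanning ratio is low just past the cluster, at 0.167 and 0.171, and nearly as low about 224.4 kb from its middle.

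Further into the map, contacts of the 4 fragments rose relative to distance and passed the map's median between 250 and 500 kb. The median corrected ratio was 0.295 and 0.260 at 10 to 100 kb (57 pairs), 0.441 and 0.386 at 100 to 250 kb (55 pairs), and 1.33 and 1.22 at 250 to 500 kb (24 pairs; 1.28 ± 0.08, SD, n = 2). Over all pairs of the map the same ranges gave 0.338 and 0.470, 0.513 and 0.594, and 0.865 and 0.777. The Igh flank was already at 1.04 and 0.880 from 100 to 250 kb, and at 1.42 and 0.947 from 250 to 500 kb, above the cluster in replicate 1 and below it in replicate 2. The outer flank was at 0.786 and 0.736 from 250 to 500 kb. The cluster thus lay below both flanks and below the map from 100 to 250 kb in each replicate.

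The values at 250 to 500 kb were above 1 for the forward fragments. Forward 23 had median corrected ratios of 1.49 and 1.53 over 7 pairs and forward 25 had 1.30 and 1.25 over 7 pairs, against 0.839 and 0.841 for reverse 22 and 0.915 and 0.612 for reverse 24, over 5 pairs each. Median counts of these pairs were 4 and 81 for forward 23 and 13 and 113 for forward 25. They were 42 and 121 for reverse 22 and 13 and 91 for reverse 24, so the values of replicate 1 rest on few counts. Forward and reverse fragments have different partners, so these values do not compare the fragments over the same places. The partners of these 24 pairs lie in chr12:114686568-114939720. Of the 24 pairs 12 (50%) were over 1 in both replicates, against 22.46% of the 1278 pairs of the map at that distance, and 1 was over 2 in both. The uncorrected median was 0.0941 and 0.265, so the level above 1 holds only after division by the primer factors. These factors are means over all pairs of a fragment, so low pairs under 250 kb raise the corrected ratios of its other pairs. The comparison with the map cannot separate this from a high level at 250 to 500 kb.

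**Figure D5:**
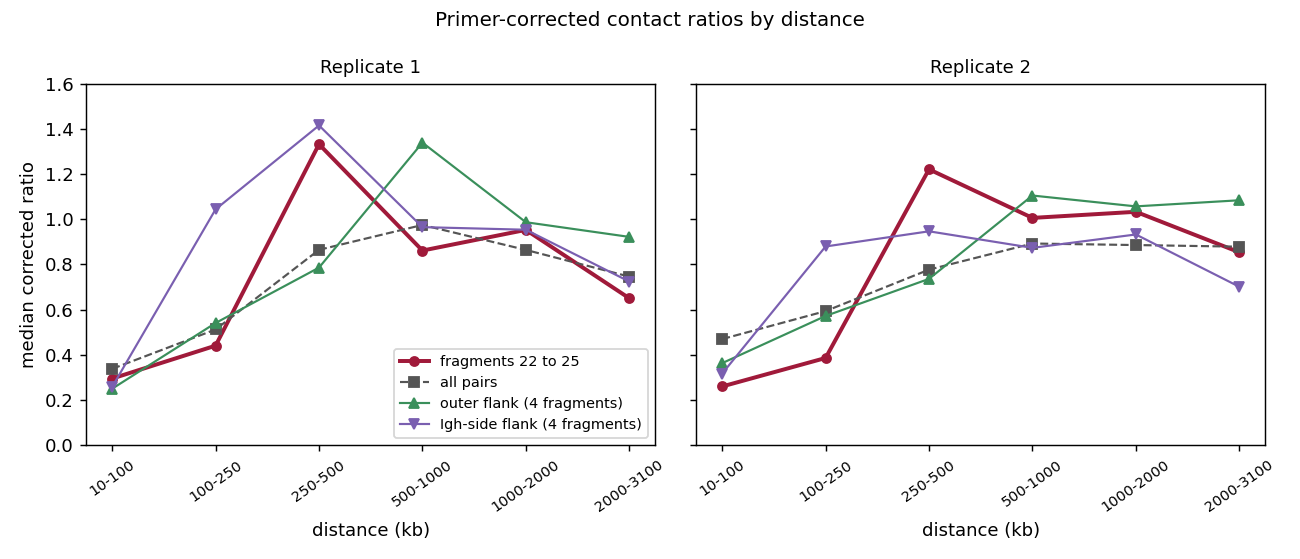
Median corrected ratio by distance range in kb, in replicate 1 and replicate 2, for fragments 22 to 25, all pairs, and the 4 flanking fragments on each side. Fragments 22 to 25 rise from 0.295 and 0.260 at 10 to 100 kb to 1.33 and 1.22 at 250 to 500 kb, and at 100 to 250 kb they lie below the other sets.

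In raw counts the cluster fell more steeply with distance than all pairs of the map in both replicates, a difference that rested in part on 1 pair. The slope of log10(count + 1) on log10 distance from 10 to 500 kb was -1.24 and -1.04 over 136 pairs of the cluster, or -1.14 ± 0.15 (SD, n = 2). It was -0.93 and -0.91 over all pairs, -0.97 and -1.06 on the outer flank, and -0.85 and -0.86 on the Igh flank. In replicate 2 the outer flank fell more steeply than the cluster. Without forward 28 with reverse 24 the cluster's slope was -1.02 ± 0.16 (SD, n = 2), and the all-pairs mean of -0.92 lay within that spread. Among pairs with at least 10 counts in both replicates the cluster's slope was -0.87. The slope of all pairs with that minimum is not given here.

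Far contacts, over 1 Mb, were at about the level of the map after primer correction. The 221 far pairs had a median corrected ratio of 0.864 and 0.990, or 0.927 ± 0.0891 (SD, n = 2), against 0.821 and 0.884 over all far pairs. Uncorrected, the medians were 0.107 and 0.546, against 0.424 and 0.518 over all far pairs. The factors are means over all pairs of a fragment, and 221 of the 405 pairs are far. The correction thus draws the far level of each fragment towards that of the map. Across 5 parts of equal length the corrected median was 0.433 and 0.397 in the first (chr12:114339456-114941602, 137 pairs), which holds the cluster. It was 0.862 and 0.971 in the second (56 pairs), 1.04 and 1.08 in the third (chr12:115543749-116145894, 92 pairs), 0.751 and 0.912 in the fourth (52 pairs) and 0.647 and 0.823 in the fifth (68 pairs). The third was the highest in both replicates, although its value in replicate 1 exceeded that of the second by less than the replicates differed in the last.

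The partners with the highest values were spread over the locus. By rule, the 5 partners of each fragment with the highest ratio and the 5 with the highest corrected ratio were named, among pairs with at least 10 counts in both replicates, which gave 27 pairs with the called ones, 17 of them over 1 Mb. None of those not given above was called. Since they are the highest values, they are described without a test. Reverse 22 had its most even far partner in forward 624 (chr12:116605743-116610576), 2170 kb away, with 476 and 563 counts, a ratio of 6.37 ± 0.395 and corrected ratios of 4.93 and 4.66. Forward 346 (chr12:115628291-115630212) had 448 and 382 counts with reverse 22, and corrected ratios of 4.17 and 2.49. Forward 158 (chr12:114938327-114939720) was high with both reverse fragments, with 415 and 633 counts and corrected ratios of 3.83 and 2.21 for reverse 22, and 60 and 190 counts and 2.72 and 1.78 for reverse 24.

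Forward 23 and forward 25 also shared partners. Reverse 435 (chr12:115877939-115880010) had 127 and 145 counts with forward 23 and 142 and 173 with forward 25, with corrected ratios of 5.72 and 2.12, and 2.54 and 1.31. Reverse 499 (chr12:116166285-116168748) had 69 and 245 counts with forward 23 and 120 and 223 with forward 25. Its corrected ratios were 2.86 and 2.46 with forward 23 and 1.98 and 1.16 with forward 25. Near the far end of the locus, forward 25 had 112 and 95 counts with reverse 834 (chr12:117315157-117317137), 2866 kb away, where the corrected ratios of 6.81 and 2.46 differed over 2-fold between replicates. Reverse 24 had 22 and 166 counts with forward 272 (chr12:115362252-115363989), corrected to 2.50 and 3.08, and 22 and 105 with forward 513 (chr12:116215116-116216127), corrected to 2.40 and 2.49. Of the far pairs of the cluster, 11 of 221 (4.977%) had corrected ratios over 2 in both replicates, against 3.313% of the map's 5131.

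Each of the 4 fragments had at least 1 named partner within a stretch of 20.27 kb, chr12:115616163-115636437, the only one of its kind when named partners under 10 kb from each other were joined, a grouping made after these values were seen. These were forward 346 for reverse 22, reverse 339 for forward 23, forward 340 for reverse 24, and reverse 339 and reverse 348 for forward 25. Reverse 339 was named by its uncorrected ratio only, so by corrected ratio forward 23 had no named partner there. Reverse 339 (chr12:115616163-115618624) had 46 and 96 counts with forward 23 and 92 and 132 with forward 25, with corrected ratios of 2.40 and 1.30, and 1.91 and 0.927. The stretch holds 7 probed fragments, which form 14 pairs with the cluster. Of these, 5 had corrected ratios over 1 in both replicates and 3 were over 2 in both. Each flank also had 4 of 14 over 1 in both, and 1 (outer) and 0 (Igh) over 2 in both. The median of the 14 was 1.66 and 1.15, against 0.762 and 1.26 for the outer flank and 1 and 0.951 for the Igh flank. The stretch was set by the cluster's own highest partners, and the 3 pairs over 2 are among these. An excess over the flanks was therefore built in and shows nothing further. Inside the stretch the high values were thus in single pairs, and forward 25 with reverse 345 had 1 and 11 counts there. Forward 338, which adjoins the stretch at lower coordinates, was also high with reverse 24, at 3.14 and 3.21 on 4 and 43 counts.

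Reverse 81 (chr12:114664824-114667095), the fragment with the most called pairs of the map (8 of 25), formed no called pair with the cluster. Forward 23 had 232 and 553 counts with it, and ratios of 0.556 and 0.892 that placed it among the 5 highest of forward 23, with corrected ratios of 1.02 and 0.802. Forward 25 had 367 and 642 counts, ratios of 0.845 and 1.004 and corrected ratios of 0.623 and 0.472. Both ratios were above the median of their fragment, and the corrected ones were near or below 1. Across the gap, forward 28 had 36508 and 56969 counts with reverse 81, corrected to 6.80 and 8.78. Forward 20, on the outer side, had 652 and 466 counts, corrected to 0.260 and 0.476. Reverse 22 and reverse 24 cannot be paired with it, because all 3 carry reverse primers.

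Profiles of fragments of the same primer type were compared within the cluster. Over 106 reverse partners, the corrected ratios of forward 23 and forward 25 had a Spearman rho of 0.504 in replicate 1 and 0.542 in replicate 2, where the median of all 4753 pairs of forward fragments was 0.00961 and 0.0133. Each was the other's closest match in both replicates, and 99.05% and 99.54% of forward pairs had a lower rho. Over 96 forward partners, reverse 22 and reverse 24 had 0.322 and 0.424, where 93.34% and 97.65% of 5778 reverse pairs were lower. They were not each other's closest match: in replicate 1 reverse 24 ranked 6 for reverse 22 and reverse 22 ranked 2 for reverse 24, and in replicate 2 the ranks were 7 and 4. The profiles of a pair share each library and its partners, and fragments near each other have similar distances to all partners, so these are descriptions.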

How the data were processed

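The authors deposited, for each library, a table of unscaled counts, one whole number for each combination of a forward with a reverse primer. Novoalign and build mm9 are named in the submitters' processing notes, and a step called transpurge per the file headers. Gene desert pairs were not analysed here. Expected counts came from lowess (span 0.3) of the counts against log10 distance, fitted in each library to 10415 pairs at least 10 kb apart. A second curve gave the SD, and a Weibull fit to the residuals gave p and Benjamini-Hochberg q over all pairs. Ratios are counts over expected counts. For corrected ratios, 50 rounds of division by every primer's mean ratio were run, with the 25 called pairs left out of the means. Calls after primer correction used factors fitted with all pairs unless stated. A pseudocount of 1 was used for slopes.

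The fragments, lists and rules were chosen with earlier results of these data known. The comparison of sides, the borders, the range of 250 to 500 kb and the 20.27 kb stretch were chosen after the values were seen. Pairs were named by the rule given in the Results. Calling was checked on simulated data. Alternatives were other spans, thresholds, scales, distance and count minimums, primer factors, thinning and single replicates. Python 3.11.15, NumPy 2.4.6, SciPy 1.17.1, pandas 2.3.3, statsmodels 0.14.6 and matplotlib 3.10.9 were used.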

Additional observations from a re-analysis of the deposited data

How the results depend on the processing

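The called pairs, 1 on counts, numbered 0 on the log2 scale and 0 without a distance minimum, and 3 with primer correction, 3 with factors fitted without called pairs and 3 with primer correction on the log2 scale. Single replicates gave 1 to 2. The other settings tried, among them spans of 0.1 and 0.6, q under 0.001 and 0.05, a 20 kb minimum and thinning, gave 1. The contact level of 0.236 became 0.736 as a mean of ratios and 0.693 with a straight line for the expected count, and was 0.0989 to 0.372 in single replicates. The far level of 0.927 became 0.327 without primer correction and 0.821 with factors fitted with called pairs, and was 0.864 to 0.990 in single replicates. The slope of -1.14 became -0.87 with at least 10 counts, and was -1.24 to -1.04 in single replicates. The log2 difference between sides, -1.44, became -0.29 without primer correction, -1.64 with a span of 0.6 and -1.20 without reverse 22, and was -1.57 to -1.31 in single replicates. The level from 250 to 500 kb, 1.28, became 0.180 without primer correction, 1.14 with factors fitted with called pairs, 1.12 with a span of 0.6 and 1.16 with at least 10 counts, and was 1.22 to 1.33 in single replicates. The level across the border after forward 25, 0.169, became 0.188 without primer correction, 0.131 with factors fitted with called pairs, 0.210 with a span of 0.1, 0.173 with a span of 0.6 and 0.223 with at least 10 counts, and was 0.167 to 0.171 in single replicates. The cause of these changes was not tested. Leaving single replicates aside, 17 of 24 alternatives moved the level of a single fragment by less than 1 SD and 7 by more. For single pairs 29 of 36 left the call as it was, 2 ended one and 5 made one. The settings without called pairs in the factors, without a distance minimum, with primer correction on the log2 scale and with thinned calls, the contact level and slope without forward 28 with reverse 24, and all those for the sides, the border and 250 to 500 kb, were chosen after seeing the data. No paired analysis was possible because there is only 1 group. Only 235 of the 405 pairs reached 10 counts in both replicates, so many single values rest on few counts.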

Other observations

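Forward 694 with reverse 24, 2400 kb apart, had 9 and 267 counts and corrected ratios of 3.67 and 9.52. It missed the minimum of 10 counts in replicate 1 and was singled out from its values. The pair of forward 23 with reverse 4, 85.51 kb apart on the outer side, had 46 and 1902 counts, a 33.96-fold difference in share, while forward 23 with reverse 10, 62.68 kb apart on the same side, had 1268 and 1654.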
